A study of Mus musculus with 6 samples.

Results

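The microRNA processing and Argonaute genes described here are Drosha, Dgcr8, Xpo5, Dicer1, Tarbp2, Ago1, Ago2, Ago3 and Dis3l2. They were chosen by name, and each was read from the probesets annotated with exactly 1 gene symbol, taking the brightest by its mean over the 6 arrays. Of the 9 genes, 8 had such a probeset, out of 22180 genes that had one, and in each case it was the gene's only one. The 1 probeset of Dgcr8 is annotated to Dgcr8 and Mir1306, which makes 2 symbols, so Dgcr8 was not analysed here. Drosha lay below the median of all probesets on every array and did not pass the filter on dim probesets, which asked for at least 2 arrays at or above that median. That left 7 of these genes among 14020 tested.

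The series holds 6 Mouse Gene ST arrays, each loaded with RNA from 10 blastocysts, in 3 groups of 2 arrays. D4-act-7g blastocysts were activated and taken on day 4. Dor-7g blastocysts were dormant in vivo on day 7. DOX-7g blastocysts were made dormant in vitro, on day 7, by let-7 whose induction used DOX. All 3 groups came from let7g-transgenic mice, so the day 4 group carries the transgene as well. The labels name neither the promoter of the transgene nor a dose of DOX. Day cannot be told apart from dormancy in either comparison with D4-act-7g, and in DOX-7g culture and DOX exposure come with let-7 induction too. No label states whether arrays of a group stem from separate litters, so p-values here cover only the spread between these arrays. In whole blastocysts, fewer cells of a type and less RNA per cell cannot be told apart.

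MicroRNAs are cut from longer transcripts in steps. In the nucleus the Microprocessor, made of the nuclease Drosha and its RNA-binding partner Dgcr8, releases a hairpin. Exportin 5, the product of Xpo5, carries the hairpin to the cytoplasm, where Dicer1 with its partner Tarbp2 removes the loop. One strand is then loaded into an Argonaute protein, which silences messenger RNAs that pair with the microRNA's seed. The nuclease Dis3l2 degrades let-7 precursors that carry a uridine tail, the fate of those bound by Lin28a. Mouse embryos without Dicer1 or Ago2 die in development, and Ago2 is the member of its family known to slice a fully paired target.

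The let-7g hairpin is shown because the embryos were let7g-transgenic and microRNA hairpins are what these genes act on. It is given as RefSeq lists the mouse gene Mirlet7g, at chr9:106178840-106178927, plus strand, GRCm38.p6. The labels do not give the sequence of the transgene itself, so its hairpin may differ from the one printed. Capitals mark the mature 5′ arm and the mature 3′ arm. The Microprocessor cuts at the outer ends of both arms and Dicer1 at the ends that face the loop.
let-7g hairpin: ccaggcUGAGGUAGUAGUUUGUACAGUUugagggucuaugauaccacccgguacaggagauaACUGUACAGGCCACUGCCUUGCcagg
The seed, bases 2 to 8 of the mature microRNA, is what an Argonaute uses to find targets. It is in capitals in these lines, which set let-7g beside relatives that differ from it outside the seed and beside the 1 that differs within it.
let-7g-5p: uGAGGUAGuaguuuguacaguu
let-7a-5p: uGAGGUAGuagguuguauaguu
let-7d-5p: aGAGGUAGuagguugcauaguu
miR-98-5p: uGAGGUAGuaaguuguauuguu
let-7j: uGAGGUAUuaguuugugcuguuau
Of the distinct mature sequences that RefSeq names let-7 or miR-98 on this arm, 10 share the seed GAGGUAG, and let-7j has GAGGUAU. An Argonaute loaded with any of those 10 reads targets with the same seed.

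The arrays had medians of 4.62 to 4.87 log2 units, the highest on Dor-7g replicate 1. That array stood apart, with Pearson's r of 0.899 to 0.919 with the others across probesets, against 0.978 between the D4-act-7g arrays and 0.969 between the DOX-7g arrays. Markers of the blastocyst's cells were present: of 7 trophectoderm markers 5, of 6 primitive endoderm markers 5 and of 5 inner cell mass markers 4 were at or above the array median on all 6 arrays, while Sox2 did not pass the filter. Of 10 blood and immune markers 7 were tested. Their mean level was 4.66 to 4.74 on the D4-act-7g arrays, 5.07 to 5.42 on those of Dor-7g and 7.35 to 7.37 on those of DOX-7g. The DOX-7g mean rests mostly on S100a8, S100a9 and Ly6g. S100a8 had group means of 3.22, 5.00 and 10.52, and passed the filter only through Dor-7g replicate 2 and both DOX-7g arrays. All 7 had differences above 0 in DOX-7g against D4-act-7g, and 6 of 7 in Dor-7g. Elane varied little (4.97, 5.06 and 5.06), and Cd52 was 6.22 on day 4 and 5.34 in Dor-7g. The neutrophil gene S100a9 rose in Dor-7g against D4-act-7g (2.21 ± 0.26), and S100a9 (5.00 ± 0.26) and Ly6g (3.54 ± 0.25) rose in DOX-7g (log2 difference ± SE; limma, adjusted p = 0.0274, 0.00112 and 0.00434). S100a9 passed the filter only through its 4 dormant arrays and Ly6g only through its 2 DOX-7g arrays, so each entered the test through the groups where it was high. The leukocyte gene Ptprc did not pass the filter, with 3.57 to 3.82 on the 6 arrays. The mean level of 7 tested uterine epithelium markers, of 9, was 4.96 to 5.01 on the D4-act-7g arrays and 5.28 to 5.51 on those of Dor-7g. On the DOX-7g arrays it was 5.40 to 5.66, which rests mostly on Krt19 and Muc1. These differed by 1.91 ± 0.33 and 1.22 ± 0.19 in DOX-7g from D4-act-7g, and neither passed. Ltf and Foxa2 differed by 0.31 and 0.33 there, and Lcn2, Wnt7a and Cdh16 by only 0.02, 0.02 and 0.01. Pgr and Pax8 did not pass the filter. Of 8 uterine stroma markers 4 were tested, with a mean level of 5.55 to 5.64 on day 4, 5.75 to 6.0 for Dor-7g and 5.60 to 5.74 for DOX-7g, and all 4 had differences above 0 in Dor-7g against D4-act-7g, none of which passed. Dor-7g replicate 2 also stood apart, by the stroma gene Dcn, which did not pass the filter: it was at 9.29 there and at 3.67 to 4.22 on the other 5 arrays. Lum, another matrix gene below the filter, was at 5.01 there and at 3.44 to 4.13 elsewhere. Whether blood, immune or uterine cells were present, and what part any cells had in the values below, was not tested.

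None of the 7 tested genes differed between any groups after adjustment over all 14020 genes. The share of all genes that did was itself small, at 0.984% for Dor-7g versus D4-act-7g, 0.956% for DOX-7g versus D4-act-7g and 1.16% for DOX-7g versus Dor-7g, so 0 of 7 is near that background. By direction, 0.243% of all genes were higher and 0.742% lower in the first comparison, 0.706% and 0.250% in the second, and 1.04% and 0.121% in the third. At an unadjusted p under 0.05, limma passed 1 of 7 in the first comparison (14.3% of all genes), 2 of 7 in the second (11.0%) and 0 of 7 in the third (11.6%). The data therefore give the level of each gene on each array, and intervals for the differences of its group means. Those intervals cover only the spread between these arrays. Differences between group means are in log2 units, ± limma's moderated SE, with 95% confidence intervals.

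**Figure D1:**
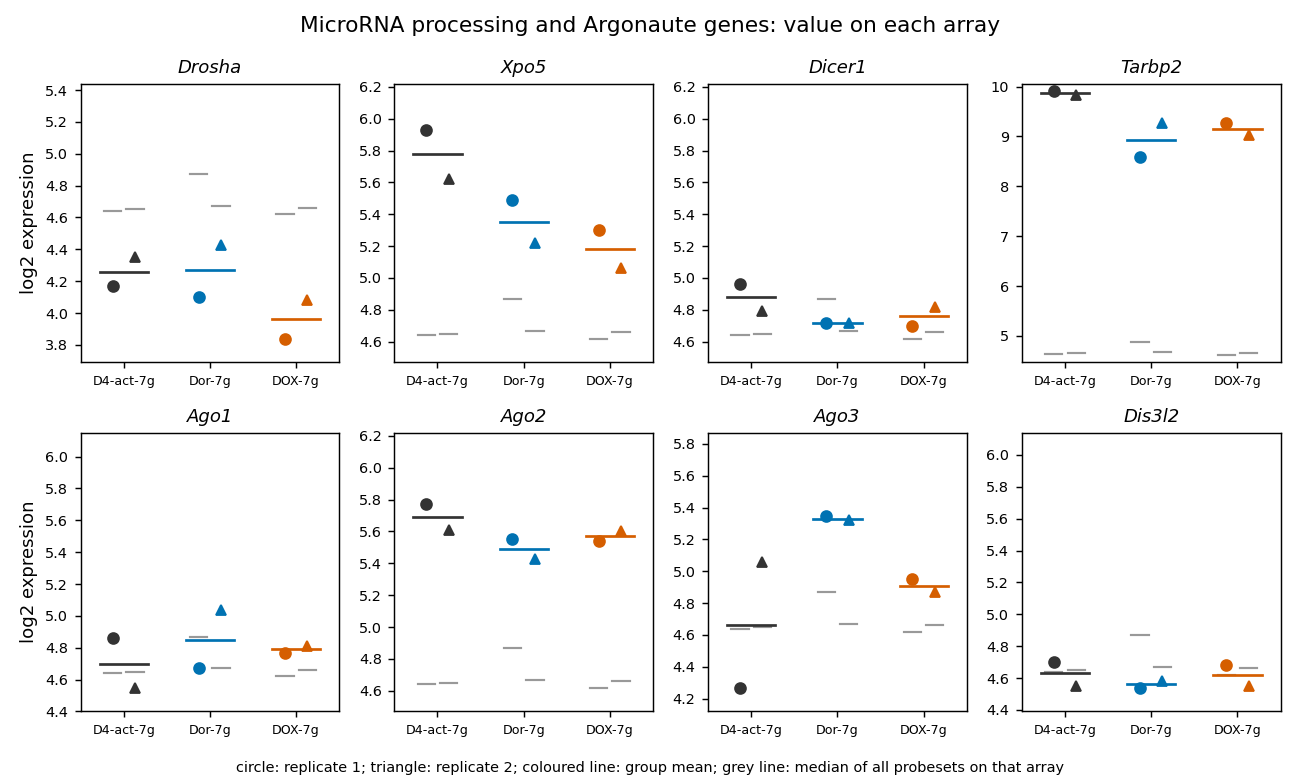
Deposited log2 expression (vertical axis, not starting at 0, its range set per gene) of 8 genes on each array, by group. Circles are replicate 1, triangles replicate 2, coloured lines group means of 2 arrays and grey lines the median of all probesets on each array. Tarbp2 lies between 8.58 and 9.91, well above the array medians, Drosha lies below them throughout, and Tarbp2, Xpo5 and Ago2 have both D4-act-7g arrays above the other 4.

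Drosha, the nuclease that starts processing, gave 4.17 and 4.35 on the D4-act-7g arrays, 4.10 and 4.43 on those of Dor-7g and 3.84 and 4.08 on those of DOX-7g. Every value lay 0.23 to 0.78 below the median of its array, so the probeset was dim and a change in Drosha could be compressed. The arrays of D4-act-7g and Dor-7g overlapped, and both DOX-7g values lay below the other 4. Fitted without the filter, Drosha differed by 0.01 ± 0.20 in Dor-7g and by -0.30 ± 0.20 in DOX-7g against D4-act-7g (limma, adjusted p = 0.99 and 0.838), neither of which passed.

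Xpo5, which encodes the exporter of precursor hairpins, gave 5.93 and 5.62 on the D4-act-7g arrays, 5.49 and 5.22 on those of Dor-7g and 5.30 and 5.06 on those of DOX-7g. Both day 4 arrays were above all 4 arrays of dormant blastocysts, and the dormant groups overlapped with each other. The difference was -0.43 ± 0.21 in Dor-7g (interval -0.95 to 0.10; limma, adjusted p = 0.427) and -0.60 ± 0.21 in DOX-7g (interval -1.12 to -0.08; limma, unadjusted p = 0.0307 and adjusted p = 0.381). Between DOX-7g and Dor-7g it was -0.18 ± 0.21 (limma, adjusted p = 0.74). Ran, the GTPase that exportins need to bind cargo, gave 9.71 and 9.81 on the D4-act-7g arrays, 6.70 and 8.89 on those of Dor-7g and 9.31 and 9.18 on those of DOX-7g. The low Ran value was that of Dor-7g replicate 1, and Ran did not pass either (Dor-7g versus D4-act-7g, -1.96 ± 0.66; limma, adjusted p = 0.265).

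Dicer1, the nuclease that removes the hairpin loop, varied little. It gave 4.96 and 4.79 on the D4-act-7g arrays, 4.72 and 4.72 on those of Dor-7g and 4.70 and 4.82 on those of DOX-7g, within 0.26 log2 units over all arrays and near the array medians. Differences from D4-act-7g were -0.16 ± 0.17 in Dor-7g and -0.11 ± 0.17 in DOX-7g (limma, adjusted p = 0.707 and 0.927). The intervals, -0.58 to 0.27 and -0.54 to 0.31, lie within 1 log2 unit of 0, for a signal near the array median, where changes can be understated.

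Tarbp2, the double-stranded RNA-binding partner of Dicer, had the widest gap between group means of the 8 measured genes, 0.94 log2 units. It gave 9.91 and 9.83 on the D4-act-7g arrays, 8.58 and 9.28 on those of Dor-7g and 9.27 and 9.04 on those of DOX-7g. Both day 4 arrays were above all 4 others, the D4-act-7g arrays lay close together, and the Dor-7g arrays lay far apart. The difference was -0.94 ± 0.27 in Dor-7g, 1.91-fold lower (interval -1.60 to -0.27; limma, unadjusted p = 0.0138 and adjusted p = 0.213). In DOX-7g it was -0.71 ± 0.27, 1.64-fold lower (interval -1.38 to -0.05; limma, unadjusted p = 0.0389 and adjusted p = 0.419). Without Dor-7g replicate 1 the Dor-7g difference was -0.59, and without Dor-7g replicate 2 it was -1.28. Each of these fits leaves 1 Dor-7g array, so the size rests on which of them is used. Replicate 2 is the array with the high Dcn value, and replicate 1 is the array that stood apart in its correlations with the others. DOX-7g and Dor-7g overlapped (0.22 ± 0.27; limma, adjusted p = 0.74), and that sign turned without Dor-7g replicate 1 (-0.12) and when arrays were quantile normalized again (-0.01). Both comparisons with D4-act-7g use the same 2 day 4 arrays. Non-overlap below them in both dormant groups held for Tarbp2, Xpo5 and Ago2, 3 of 7 tested genes, and for 13.4% of all genes tested. Prkra, the other such partner of Dicer, gave 6.10 and 6.31 on the D4-act-7g arrays, 5.15 and 5.92 on those of Dor-7g and 6.50 and 6.15 on those of DOX-7g, so its DOX-7g arrays overlapped those of day 4.

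The Argonaute genes encode the proteins that carry the mature microRNA. Ago2 gave 5.77 and 5.61 on the D4-act-7g arrays, 5.55 and 5.43 on those of Dor-7g and 5.54 and 5.60 on those of DOX-7g. The highest array exceeded the lowest by 0.33 log2 units, with both day 4 arrays on top by a margin smaller than their own spread. Differences from D4-act-7g were -0.19 ± 0.17 in Dor-7g (interval -0.62 to 0.23) and -0.12 ± 0.17 in DOX-7g (interval -0.54 to 0.31), and neither passed (limma, adjusted p = 0.638 and 0.927).

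Ago1 gave 4.86 and 4.55 on the D4-act-7g arrays, 4.67 and 5.04 on those of Dor-7g and 4.77 and 4.81 on those of DOX-7g. All groups overlapped, and the pairs of arrays within D4-act-7g and within Dor-7g were farther apart than any group means. The differences were 0.15 ± 0.21 in Dor-7g and 0.09 ± 0.21 in DOX-7g against D4-act-7g (limma, adjusted p = 0.772 and 0.968).

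Ago3 gave 4.27 and 5.06 on the D4-act-7g arrays, 5.35 and 5.32 on those of Dor-7g and 4.95 and 4.87 on those of DOX-7g. Both Dor-7g arrays were above the other 4, while the day 4 arrays differed from each other by more than the groups did. The difference was 0.67 ± 0.28 in Dor-7g (interval -0.03 to 1.37; limma, adjusted p = 0.372) and 0.25 ± 0.28 in DOX-7g (limma, adjusted p = 0.885). Without D4-act-7g replicate 1 these were 0.27 and -0.15, and without replicate 2 they were 1.07 and 0.65, so the single low day 4 array sets their size. DOX-7g lay below Dor-7g by -0.42 ± 0.28 (limma, adjusted p = 0.582). In RefSeq's gene order Ago3, Ago1 and Ago4 are consecutive protein-coding genes. Ago4, the fourth family gene, was too dim to pass the filter and gave 3.77 and 4.21 on the D4-act-7g arrays, 4.60 and 4.79 on those of Dor-7g and 3.97 and 4.26 on those of DOX-7g. Its Dor-7g arrays, like those of Ago3, were the highest, with a difference of 0.71 ± 0.22 from D4-act-7g in the fit without the filter (limma, adjusted p = 0.294), whereas Ago1 overlapped in all groups.

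Dis3l2, the nuclease of tailed let-7 precursors, was the least variable of the set. It gave 4.70 and 4.55 on the D4-act-7g arrays, 4.54 and 4.58 on those of Dor-7g and 4.68 and 4.55 on those of DOX-7g, a span of 0.16 log2 units over 6 arrays. Only 2 of its arrays reached the array median, so it passed the filter at its limit. The differences were -0.07 ± 0.17 in Dor-7g and -0.01 ± 0.17 in DOX-7g against D4-act-7g (limma, adjusted p = 0.872 and 0.994). Lin28a, the RNA-binding protein that marks let-7 precursors for this route, gave 6.15 and 6.04 on the D4-act-7g arrays, 6.19 and 6.04 on those of Dor-7g and 5.71 and 6.01 on those of DOX-7g. Its DOX-7g difference was -0.23 ± 0.19 from D4-act-7g (limma, adjusted p = 0.801). The uridyl transferase genes Tut4 and Tut7 did not pass the filter. Lin28a, Tut4, Tut7, Prkra and Ptprc were named after their values were seen, although Prkra also met the rule for naming genes given below. Ago4, Dcn and Lum did not pass the filter, so that rule did not name them either.

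**Figure D2:**
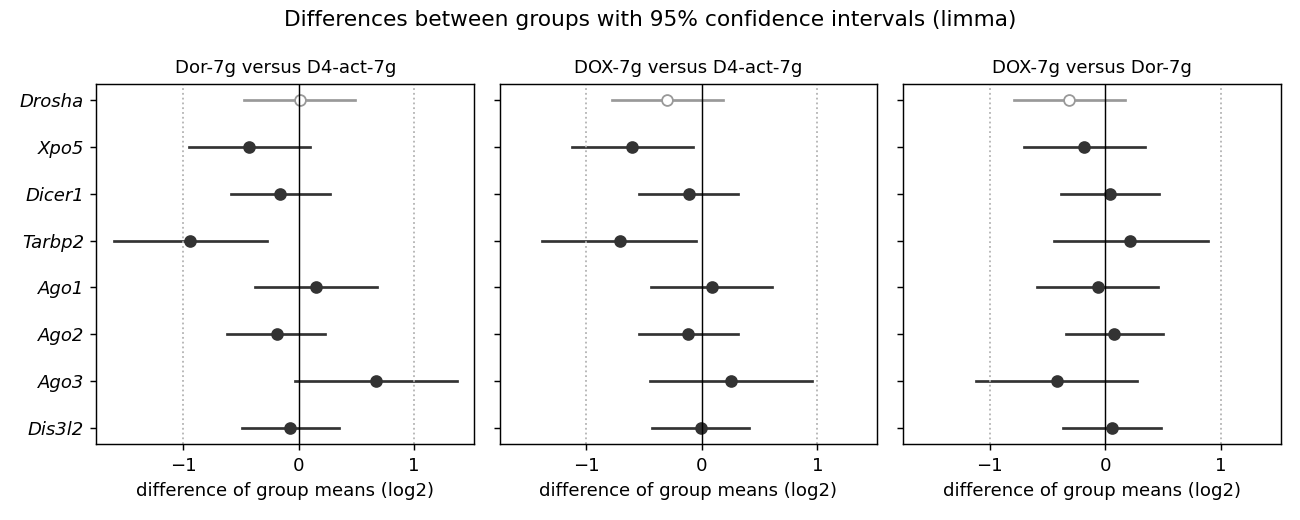
Differences of group means (horizontal axis, log2) for 8 genes in the 3 comparisons, with 95% confidence intervals from limma. Filled points were tested after the filter on dim probesets, the open grey point is Drosha from the fit without it, and dotted lines mark a factor of 2. In the comparisons with D4-act-7g, Tarbp2 and Xpo5 lie lowest, and 5 of the 7 intervals in each stay within the dotted lines.

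The intervals state what these arrays limit. Between Dor-7g and D4-act-7g, 5 of 7 intervals lay wholly within 1 log2 unit of 0, and those of Tarbp2 and Ago3 did not. Between DOX-7g and D4-act-7g it was again 5 of 7, with Tarbp2 and Xpo5 outside. Between DOX-7g and Dor-7g it was 6 of 7, with Ago3 outside (-1.12 to 0.28). SEs were 0.17 to 0.28 log2 units. They rest on 1 spread per gene shared by all groups, though the Dor-7g arrays lay farther apart. The median absolute difference between a group's arrays, over probesets, was 0.34 in Dor-7g, 0.18 in D4-act-7g and 0.20 in DOX-7g. Intervals that involve Dor-7g can therefore be too narrow, and those of DOX-7g versus D4-act-7g too wide. Dicer1, Ago1 and Dis3l2, inside in every comparison, lie near the array median, where changes can be understated. Arrays did not overlap for 5 of 7 genes in Dor-7g against D4-act-7g, 1 higher and 4 lower (45.8% of all genes, 24.3% higher and 21.5% lower). For DOX-7g against D4-act-7g it was 3 of 7, all lower (49.7%, with 19.2% higher and 30.5% lower). For DOX-7g against Dor-7g it was 1 of 7, lower (41.7%, with 15.0% higher and 26.7% lower). With so few genes these shares cannot be set apart from those of all genes. The median difference of the 7 was -0.16, -0.11 and 0.04 in the 3 comparisons, against 0.06, -0.05 and -0.11 over all genes tested. No gene's means spanned 1 log2 unit, the limit set for naming genes of like pattern, so none are named.

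Genes that work beside these were counted in 8 lists covering the steps before, during and after Argonaute loading. In 7 of them, all but that of the PIWI clade, 1 gene passed in any comparison. Of all genes tested, 0.984%, 0.956% and 1.16% passed in the 3 comparisons. The 1 gene was Btg2, an antiproliferative protein that binds the deadenylase. It gave 3.56 and 4.05 on the D4-act-7g arrays, 3.90 and 4.54 on those of Dor-7g and 6.16 and 5.88 on those of DOX-7g. Both DOX-7g arrays were above the rest, and Btg2 rose by 2.22 ± 0.30 against D4-act-7g (limma, adjusted p = 0.04), 1 of 16 tested genes of deadenylation, decapping and 5′ decay. Of all genes tested, 0.706% passed as higher in that comparison. Btg2 passed the filter only through its 2 DOX-7g arrays, the group where it was high, and the stricter filter removed it. Its call was lost without any 1 of the D4-act-7g or DOX-7g arrays (adjusted p of 0.157 to 0.254) and under both other normalizations.

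The list of 9 tested chaperones of Argonaute loading stood lowest in Dor-7g. These proteins, with Hsp90 at their centre, hold Argonaute open for the small RNA, and they serve many other clients. None of the 9 passed in any comparison, 6 were lower at an unadjusted p under 0.05 between Dor-7g and D4-act-7g (8.81% of all genes tested), and the median difference was -0.90, against 0.06 over all genes. The figures over all genes are not matched to these 9 for level: all but Fkbp5 had D4-act-7g means of 6.68 to 11.06. Stip1, which links Hsp70 to Hsp90, gave 7.05 and 6.79 on the D4-act-7g arrays, 5.47 and 5.67 on those of Dor-7g and 6.02 and 6.23 on those of DOX-7g. The 3 groups did not overlap, with differences from D4-act-7g of -1.35 ± 0.20 in Dor-7g and -0.80 ± 0.20 in DOX-7g (limma, adjusted p = 0.0515 and 0.196). The Dor-7g difference of Stip1 lay at the threshold: it passed with the stricter filter, with trend and robust variances and with averaged probesets (adjusted p = 0.0405, 0.0491 and 0.0494), and without Dor-7g replicate 2 (0.0239), while leaving out D4-act-7g replicate 1 gave the largest adjusted p, 0.362. The Hsp90 activator Ahsa1 differed by -0.90 ± 0.17 and -0.57 ± 0.17 in the same comparisons (limma, adjusted p = 0.0997 and 0.3). Between DOX-7g and Dor-7g the median of the 9 was 0.44, and Cdc37 (0.73 ± 0.21) and Stip1 (0.56 ± 0.20) came nearest to passing (limma, adjusted p = 0.291 and 0.384).

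Of 10 tested Microprocessor cofactors, none passed, and 9 had differences below 0 in each comparison with D4-act-7g, with medians of -0.31 in Dor-7g and -0.16 in DOX-7g. Of all genes tested 43.3% and 58.0% were below 0 in these comparisons, with medians of 0.06 and -0.05. Hnrnpa2b1, an RNA-binding protein, gave 7.11 and 6.79 on the D4-act-7g arrays, 6.24 and 6.13 on those of Dor-7g and 6.07 and 5.78 on those of DOX-7g. Day 4 was again highest, with differences of -0.77 ± 0.21 and -1.02 ± 0.21 (limma, adjusted p = 0.193 and 0.13). Ilf2 differed by -1.03 ± 0.30 in Dor-7g, Tardbp by -0.68 ± 0.24 in DOX-7g, and Ncbp1 and Ilf2 by 0.62 ± 0.23 and 0.72 ± 0.30 between DOX-7g and Dor-7g (limma, adjusted p = 0.215, 0.381, 0.402 and 0.439).

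Of 5 tested genes of export, Dicer partners and import, none passed. Tsnax, a subunit of the nuclease C3PO, gave 7.65 and 7.45 on the D4-act-7g arrays, 6.81 and 6.23 on those of Dor-7g and 6.56 and 6.26 on those of DOX-7g. All dormant arrays were below day 4, with differences of -1.03 ± 0.26 and -1.14 ± 0.26 (limma, adjusted p = 0.169 and 0.167). Nup153 differed by 0.19 ± 0.23 in DOX-7g from D4-act-7g, and Prkra and Ran by 0.79 ± 0.30 and 1.45 ± 0.66 between DOX-7g and Dor-7g (limma, adjusted p = 0.89, 0.415 and 0.476).

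Of 11 tested GW182 proteins and silencing partners, which link Argonaute to messenger RNA decay and translation, none passed, none had an unadjusted p under 0.05, and medians were 0.03, -0.01 and -0.04 in the 3 comparisons. Ajuba (0.51 ± 0.23) and Eif4e2 (-0.58 ± 0.29) were nearest in Dor-7g against D4-act-7g, Eif4enif1 (-0.39 ± 0.18) and Wtip (0.36 ± 0.30) in DOX-7g (limma, adjusted p = 0.388, 0.429, 0.521 and 0.807). Between DOX-7g and Dor-7g these were Ajuba (-0.44 ± 0.23) and Eif4e2 (0.56 ± 0.29; limma, adjusted p = 0.512 and 0.513).

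Of 10 tested genes of let-7 precursor control and microRNA turnover, none passed. Syncrip (-1.32 ± 0.42) and Zswim8 (0.36 ± 0.20) were nearest in Dor-7g, and Tent2 (0.56 ± 0.20) and Pnpt1 (-0.50 ± 0.20) in DOX-7g against D4-act-7g (limma, adjusted p = 0.243, 0.475, 0.403 and 0.441). Syncrip stood at 5.57 on Dor-7g replicate 1 and 6.85 on replicate 2, against 7.55 and 7.52 on day 4. Between DOX-7g and Dor-7g, Pnpt1 (-0.69 ± 0.20) and Zswim8 (-0.53 ± 0.20) were nearest (limma, adjusted p = 0.291 and 0.409). Zswim8 belongs to the ubiquitin ligase that removes Argonautes whose microRNA pairs extensively with certain targets.

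Dis3l2 has relatives in the exosome, the main 3′ to 5′ RNA nuclease complex. Of 11 tested exosome genes none passed, and all 11 had differences below 0 in DOX-7g against D4-act-7g (58.0% of all genes tested), with a median of -0.32 (-0.05 over all genes). Exosc3, a core subunit, gave 10.61 and 10.56 on the D4-act-7g arrays, 9.28 and 9.68 on those of Dor-7g and 9.54 and 9.82 on those of DOX-7g. All 4 dormant arrays were below day 4, with differences of -1.10 ± 0.22 and -0.90 ± 0.22 (limma, adjusted p = 0.102 and 0.185). Exosc5 differed by -0.49 ± 0.19 in Dor-7g, Exosc8 by -0.43 ± 0.18 in DOX-7g, and Dis3l and Exosc5 by -0.63 ± 0.27 and 0.40 ± 0.19 between DOX-7g and Dor-7g (limma, adjusted p = 0.327, 0.462, 0.445 and 0.484). Exosc1, singled out after its values were seen, stood at 5.05 on Dor-7g replicate 1 and at 10.31 on replicate 2, against 11.42 and 11.15 on day 4.

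The PIWI clade binds another class of small RNAs, in germ cells. Of 3 tested genes of its route, Mael passed, in Dor-7g versus D4-act-7g (0.984% of all genes) and in DOX-7g versus Dor-7g (1.16%). Mael encodes Maelstrom, a protein of the PIWI-interacting RNA route. It gave 7.47 and 6.87 on the D4-act-7g arrays, 4.99 and 4.83 on those of Dor-7g and 7.95 and 7.60 on those of DOX-7g. Dor-7g was low on both arrays and the 3 groups did not overlap. Mael fell by 2.26 ± 0.26 in Dor-7g against D4-act-7g (limma, adjusted p = 0.0262), and DOX-7g stood 0.60 ± 0.26 above D4-act-7g (limma, adjusted p = 0.497). The fall lost its call without any 1 of the D4-act-7g or DOX-7g arrays (adjusted p of 0.0679 to 0.162), with array weights (0.0848) and with only both groups fitted (0.0679).

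**Figure D3:**
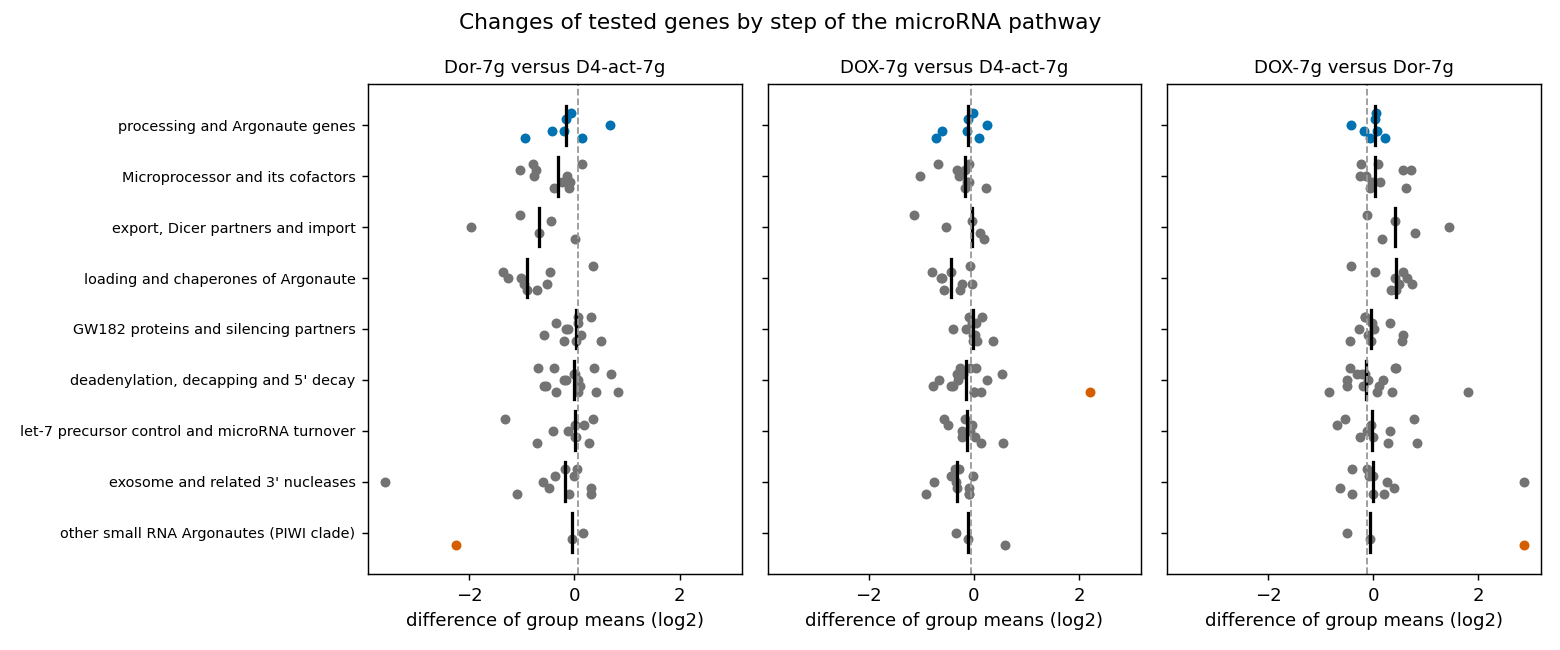
Differences of group means (horizontal axis, log2) of every tested gene in 9 lists, by comparison, with vertical positions within a list only spreading the points. Blue points are the 7 processing and Argonaute genes, grey points other genes, orange points genes past the threshold, black bars list medians and the dashed line the median of all 14020 genes. The orange points are Mael and Btg2, and the chaperones of Argonaute loading have the lowest median in the Dor-7g versus D4-act-7g panel, at -0.90.

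The hairpins that this machinery cuts were read by 12 probesets, 1 for each of 12 let-7 family genes. Mirlet7e and Mirlet7f-1 had 2 single-symbol probesets each, of which the brighter was taken. These probesets target the hairpin and not the mature microRNA, and whether they read a transcript of the transgene is not stated in the labels. Of the 12, 8 were below the array median on every array, and 2, Mirlet7a-1 and Mirlet7a-2, passed the filter. Mirlet7g, the gene whose hairpin is printed above, gave 3.31 and 3.56 on the D4-act-7g arrays, 3.50 and 3.59 on those of Dor-7g and 3.46 and 3.20 on those of DOX-7g. Its DOX-7g arrays were not above those of day 4, and in the fit without the filter the difference was -0.10 ± 0.18 (limma, adjusted p = 0.996). The probeset is dim, so it does not check the induction of let-7g. Mirlet7a-2 gave 4.21 and 4.54 on the D4-act-7g arrays, 5.01 and 4.81 on those of Dor-7g and 3.78 and 3.71 on those of DOX-7g. The 3 groups did not overlap, with DOX-7g lowest, and no comparison passed: 0.54 ± 0.20 in Dor-7g and -0.63 ± 0.20 in DOX-7g against D4-act-7g, and -1.17 ± 0.20 between DOX-7g and Dor-7g (limma, adjusted p = 0.305, 0.311 and 0.0803). Mirlet7a-2 passed the filter only through its 2 Dor-7g arrays, the group where it was highest, and was below the array median on all others. Mirlet7a-1 overlapped in all groups (limma, adjusted p = 0.751, 0.977 and 0.665).

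**Figure D4:**
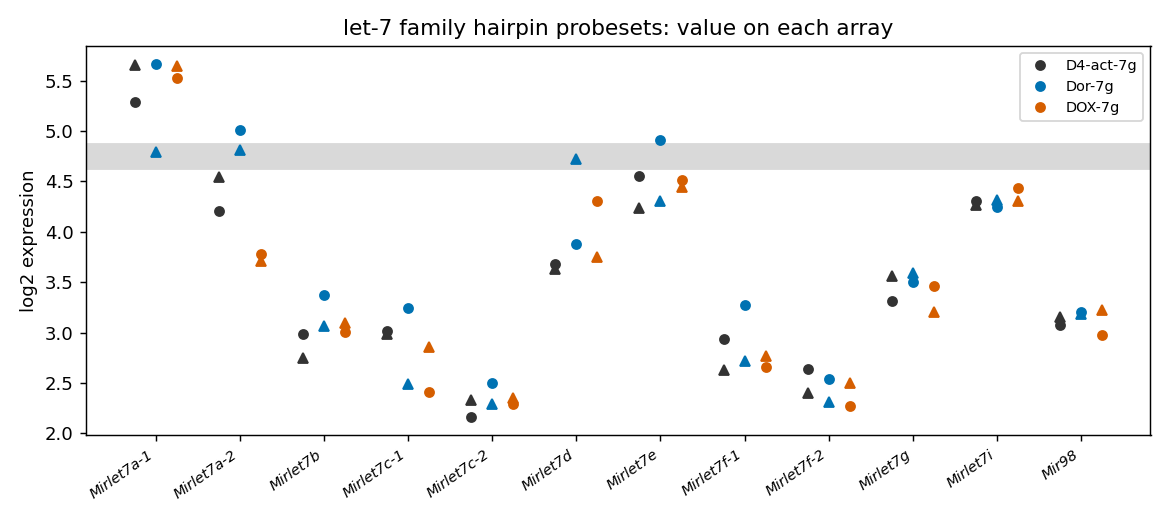
Deposited log2 expression (vertical axis, not starting at 0) of 12 let-7 family hairpins on each array, each by its brightest probeset. Circles are replicate 1, triangles replicate 2, colours are groups and the grey band spans the array medians of 4.62 to 4.87. Mirlet7a-1 lies above or within the band on all arrays, Mirlet7g lies between 3.20 and 3.59, and Mirlet7a-2 is lowest in DOX-7g.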

How the data were processed

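The deposited values are log2 expression, 1 per probeset and array, for 41345 probesets on 6 arrays; the authors used Partek 6.6 and RMA per the submitters' processing notes, which state no further detail. RMA corrects background, quantile normalizes and summarizes probes, so it can compress dim signals. Per the labels' protocols, embryos were heated in water for 5 minutes and RNA was labelled with biotin. No genome build is named there. No detection calls were used, so whether a gene was detected cannot be stated, and a level near the array median is called dim.

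Groups came from sample titles. Probesets were named by the platform annotation, with symbols updated by Entrez identifier from RefSeq (GRCm38.p6); 193 identifiers were unmatched. Probesets with 1 symbol and at least 2 arrays at or above the array median were kept, the brightest per gene. All 6 arrays were fitted in limma 3.58.1 (R 4.3.3), 1 mean per group, no block, with 3 residual and 2.81 prior degrees of freedom, tested on simulated data, and p-values adjusted by Benjamini-Hochberg over 14020 genes at 0.05. Intervals are at 95% on moderated degrees of freedom. Sequences are RefSeq's. Members and lists were chosen with earlier results of these data known. From each list the text names genes past the threshold, otherwise the 2 smallest p per comparison. Deviations of same-numbered arrays correlated at -0.0101, -0.0086 and -0.099 between groups, so no large shift shared by same-numbered arrays was seen. That cannot exclude pairing, and the labels do not say whether the numbers pair arrays. Alternatives covered normalization, filter, variance model, array weights, probeset rule, arrays fitted, a replicate block and leaving out each array.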

Additional observations from a re-analysis of the deposited data

Results flagged for a closer look

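The following genes had effects against D4-act-7g that differed between Dor-7g and DOX-7g by the test of DOX-7g versus Dor-7g. Both effects use the same day 4 arrays. Mael stood 2.86 ± 0.26 log2 units higher in DOX-7g (limma, adjusted p = 0.00953), higher in 2 of 2 arrays, and that call was lost without either DOX-7g array. Of the blood and immune markers, S100a9 stood 2.79 ± 0.26 higher (limma, adjusted p = 0.00988) and Ly6g 3.40 ± 0.25 higher (limma, adjusted p = 0.00422), each in 2 of 2 arrays. Ly6g passed the filter on dim probesets only through its DOX-7g arrays, and S100a9 only through its Dor-7g and DOX-7g arrays. None of the 7 tested processing and Argonaute genes met this condition.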

How the results depend on the processing

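No processing or Argonaute gene passed under any alternative but 1: Tarbp2 in Dor-7g versus D4-act-7g without Dor-7g replicate 2 (-1.28). That fit leaves 1 Dor-7g array, and of all alternatives it gave the most calls over all genes in that comparison. Signs turned for values near 0, none of them past the threshold. With a second quantile normalization DOX-7g versus Dor-7g became -0.01 for Tarbp2 and 0.07 for Ago1, and centring gave 0.07 for Ago1. Over arrays left out, the ranges that crossed 0 were, in Dor-7g versus D4-act-7g, -0.04 to 0.34 for Ago1 and -0.69 to 0.19 for Mirlet7a-1. In DOX-7g versus D4-act-7g they were -0.07 to 0.24 for Ago1, -0.15 to 0.65 for Ago3, -0.09 to 0.06 for Dis3l2, -0.02 to 0.40 for Nup153 and -0.08 to 0.30 for Mirlet7a-1. In DOX-7g versus Dor-7g they were -0.02 to 0.10 for Dicer1, -0.12 to 0.57 for Tarbp2, -0.25 to 0.12 for Ago1, -0.01 to 0.13 for Dis3l2 and -0.08 to 0.80 for Mirlet7a-1. Stricter filtering removed Dicer1, Ago1, Ago3 and Dis3l2 and gives them no value.

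Genes past the threshold between Dor-7g and D4-act-7g (138) were 79 with array weights, 86 with only both groups fitted, 82 with the replicate block and 11 to 1172 over arrays left out. Between DOX-7g and D4-act-7g (134) they were 461 with array weights, 296 with only both groups, 68 with all 6 arrays at or above the median and 43 to 296 over arrays left out. Between DOX-7g and Dor-7g (163) they were 104, 86 and 81 in the same order and 67 to 880. Of pathway genes (1 in each comparison), Dor-7g versus D4-act-7g gave 0 with array weights or only both groups, 2 with trend and robust, the stricter filter or averaged probesets, and 0 to 15 over arrays left out. DOX-7g versus D4-act-7g gave 4 with array weights, 0 with either other normalization, the stricter filter or the replicate block, and 0 to 1 over arrays left out. DOX-7g versus Dor-7g gave 2 with trend and robust and 0 to 9 over arrays left out. The block ended the call of Btg2 and changed no call of a processing or Argonaute gene. The 1172 and 880 came without Dor-7g replicate 2; the cause was not tested. Signal near the array median limits what can be seen for Drosha, Dicer1, Ago1, Ago3 and Dis3l2.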
